A study of Rattus norvegicus with 8 samples.

Results

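The receptors described here bind the neurotrophins and the ligands of the glial cell line-derived neurotrophic factor (GDNF) family, the 2 groups of growth factors that sensory neurons depend on. The members were every probe whose deposited gene symbol is Ntrk2, Ntrk3, Ngfr, Ret, Gfra1, Gfra2 or Gfra3, with each probe kept apart. These were 10 of 22491 probes on the array and stood for all 7 genes, 3 of which had 2 probes. Of the 10, 9 had enough values to be tested, among 22379 probes tested in all, and the 7 genes were among 10746 named genes with a tested value.

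The tissue was the dorsal root ganglion of Sprague Dawley rats, which holds the cell bodies of sensory neurons with their glia, taken 7 days after the operation. The ligation group (4 arrays) came from the side of a spinal nerve ligation, the Chung model of neuropathic pain, and the control group (4 arrays) is called contralateral in one label and sham-operated in another, so operation and side cannot be told apart. Each array carried RNA pooled from 2 animals, labelled with Cy5, against a common pool of control RNA labelled with Cy3. The labels call the samples of a group biological replicates and give no sex or age, and they name no genetic change or drug in either group. Values below are sample intensities on the deposited linear scale, or log2 ratios of sample over reference. A change is the mean log2 ratio of ligation minus that of control.

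As background, the neurotrophins act through the Trk receptor tyrosine kinases, among them TrkB and TrkC, which Ntrk2 and Ntrk3 encode, and all of them also bind the p75 receptor that Ngfr encodes. The GDNF family ligands bind a GFRα co-receptor, which is anchored to the membrane by a lipid and has no kinase of its own, and the pair then activates the shared receptor tyrosine kinase RET. In dorsal root ganglia, TrkB and TrkC mark classes of myelinated touch and position neurons, and RET marks nonpeptidergic nociceptors and some large neurons. Glia of the nerve and ganglion also use some of these receptors, among them p75, GFRα1 and forms of TrkB without the kinase.

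Promoters are shown for Gfra1, Gfra3 and Ret, the only members matched to a promoter sequence. Gfra1 and the brighter Gfra3 probe had higher signal after ligation, and the tested Ret probe had lower signal. Gfra2, whose product also uses the kinase RET, had lower signal too. RefSeq sequences (rat GRCr8) were matched for 3 of the 7 members, and each window runs from 250 bases before the transcript start used in that table to 50 after it. For Ret and Gfra3 that start is the end of the annotated gene, whereas for Gfra1 it lies inside the gene, whose annotation reaches further upstream. They lie on the minus strand at chr1:267555762-267556061 for Gfra1, chr18:26600176-26600475 for Gfra3 and chr4:153040507-153040806 for Ret. Capitals mark the GC box (GGGCGG on either strand).
Gfra1: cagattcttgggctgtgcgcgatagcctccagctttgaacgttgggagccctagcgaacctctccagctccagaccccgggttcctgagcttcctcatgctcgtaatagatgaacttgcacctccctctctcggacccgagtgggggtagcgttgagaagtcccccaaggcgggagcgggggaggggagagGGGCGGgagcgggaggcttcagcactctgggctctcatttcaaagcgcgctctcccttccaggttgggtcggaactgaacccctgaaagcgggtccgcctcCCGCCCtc
Gfra3: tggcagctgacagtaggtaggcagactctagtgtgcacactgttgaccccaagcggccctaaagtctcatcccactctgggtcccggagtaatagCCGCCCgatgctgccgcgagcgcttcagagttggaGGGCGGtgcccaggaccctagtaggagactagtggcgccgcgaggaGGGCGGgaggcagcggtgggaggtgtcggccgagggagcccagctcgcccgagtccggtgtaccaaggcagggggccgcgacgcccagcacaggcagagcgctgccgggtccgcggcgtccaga
Ret: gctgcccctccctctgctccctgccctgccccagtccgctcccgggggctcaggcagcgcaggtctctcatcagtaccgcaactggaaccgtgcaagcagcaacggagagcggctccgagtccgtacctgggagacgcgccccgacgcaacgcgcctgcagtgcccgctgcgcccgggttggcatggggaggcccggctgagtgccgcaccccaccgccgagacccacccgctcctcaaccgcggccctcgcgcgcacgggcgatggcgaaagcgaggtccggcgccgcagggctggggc
The GC box occurred 2 times in the Gfra1 window, 3 times in the Gfra3 window and 0 times in the Ret window, and 33.1% of the 33469 promoters in the table hold at least 1. The windows were rich in G and C, at 63% for Gfra1, 68% for Gfra3 and 74% for Ret, against a median of 51.7% over all promoters. The other motifs searched on both strands were the cyclic AMP response element (TGACGTCA, in 1.83% of all promoters), the AP-1 site (TGANTCA, 7.33%), the CCAAT box (CCAAT, 37.5%) and the TATA box (TATAAA, 14.2%). None of these 4 had a match in any of the 3 windows, which says only that those letters are not there. Ntrk2, Ntrk3, Ngfr and Gfra2 had no entry.

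Ligation and control differed across much of the array, and this sets the scale for the receptors. Over all 22379 tested probes, 58.6% passed the limma test at an adjusted p under 0.05, made up of 26.4% higher and 32.2% lower. The share rose with brightness, to 77.2% in the brightest 25% of probes against 25.4% in the dimmest 25%. The median sample intensity was 0.21 to 0.22 on ligation arrays and 0.17 to 0.20 on control arrays, and the log2 ratios had an SD of 0.589 to 0.632 on ligation arrays and 0.184 to 0.226 on control arrays. Most intensities were deposited with 2 decimals and the faintest with more, so the ratio of a probe near 0.1 can only move in coarse steps. For such probes the text gives the bounds that rounding alone allows.

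Cell type markers moved between the groups too, and the receptors sit in neurons and glia whose markers went in different directions. In bulk tissue, fewer cells of a type and less RNA per cell cannot be told apart. The counts below stand beside 66.1% of all named genes that passed the test, 30.3% higher and 35.8% lower. Lower signal was found for 7 of 8 general neuron markers, 6 of 7 markers of nonpeptidergic neurons, 4 of 6 of peptidergic neurons (with 1 higher) and 7 of 8 of large myelinated neurons. The summed intensity of 7 large myelinated markers was 19.6 to 20.5 on ligation arrays, against 43.5 to 51.8 on control arrays, and that of the nonpeptidergic list was 14.8 to 16.7 on ligation arrays, against 40.4 to 43.4 on control arrays. The peptidergic list summed to 34.9 to 38.2 on ligation arrays, against 51.5 to 59.7 on control arrays, and 7 of the 8 general neuron markers to 7.31 to 10.2 on ligation arrays, against 10.2 to 12.2 on control arrays. Sums cover the markers with a value on every array, which left out 1 each of the large myelinated, satellite glia and Schwann cell lists and, from the general neuron list, its brightest gene Snap25 (means of 9.36 in ligation and 21.1 in control, from arrays with a value). All 8 fibroblast markers and 9 of 11 macrophage markers were higher, with macrophage sums of 51.5 to 53.6 on ligation arrays against 6.32 to 7.65 on control arrays, and fibroblast sums of 50.5 to 64.4 on ligation arrays against 24.3 to 33.2 on control arrays. Of 11 satellite glia markers, 6 were higher and 2 lower (sums of 41.0 to 46.1 on ligation arrays and 31.2 to 34.5 on control arrays), and of 11 Schwann cell markers, 3 were higher and 5 lower (54.7 to 62.2 on ligation arrays and 50 to 67 on control arrays). Of 7 endothelial markers 3 were higher (7.36 to 9.55 on ligation arrays and 7.71 to 8.78 on control arrays). No measured marker was listed at 0 in either group, but several were faint. Mean intensities in ligation and control were 0.0098 and 0.015 for Kcnj10 and 0.0375 and 0.02 for Dio2, both satellite glia markers. They were 0.0425 and 0.02 for the macrophage marker Itgam. Dio2 was called higher although rounding alone allows -0.79 to 1.99. The part of the marker shifts in any receptor's change was not tested.

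Among the receptors, lower signal after ligation was the more frequent result. Of the 9 tested probes, 6 were lower, 2 were higher and 1 did not pass the test, and 8 of 9 called compares with 58.6% of all probes. At least a 2-fold change was found for 4 of them, Gfra1 upward and Ntrk2, Ntrk3 and Gfra2 downward, where 8.08% of all probes passed that rule, 4.67% upward and 3.41% downward. With quantile normalization between arrays 3 were, since Ntrk3 had a change of -0.92. The 4 ligation arrays lay wholly apart from the 4 control arrays for 7 of the 9 probes, against 53.3% of all probes. The 2 that overlapped were the dim second probes of Ntrk2 and Gfra3. Most of the receptor probes with a large change were also bright, and Gfra1, Ntrk2, Ngfr, Gfra2 and Ntrk3 lay at the 98.2, 97.1, 94.9, 93.5 and 93.4 percentiles of sample intensity.

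**Figure D1:**
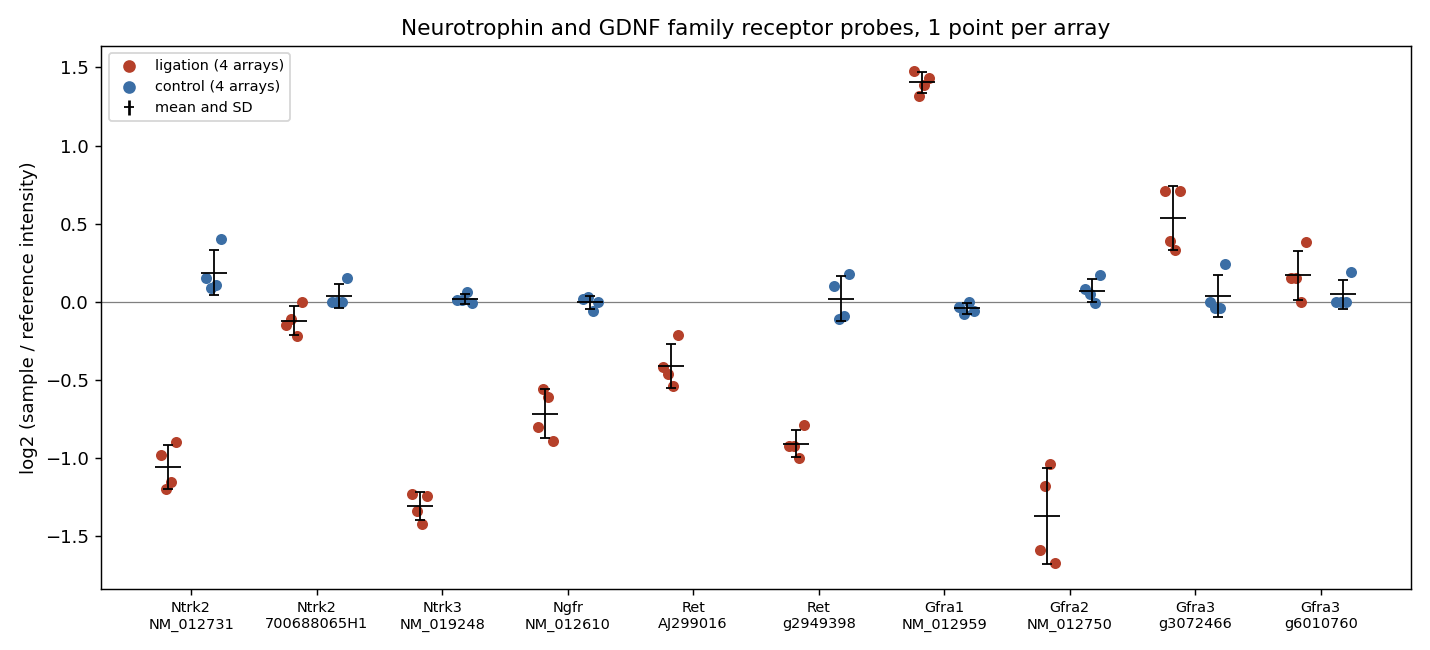
The vertical axis is the log2 ratio of sample over reference intensity for each of the 10 receptor probes, with 1 point per array, ligation in red to the left and control in blue to the right, and bars for the mean and SD over 4 arrays. The Gfra1 ligation points lie between 1.32 and 1.48 and those of Gfra2 between -1.67 and -1.04, while the brighter Ret probe AJ299016 has no control points.

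Ntrk2 encodes TrkB, the receptor of brain-derived neurotrophic factor and neurotrophin-4, and its bright probe (NM_012731) fell 2.37-fold. Sample intensities were 6.40, 5.41, 5.55 and 6.89 on the 4 ligation arrays, against 11.93, 10.19, 10.60 and 15.10 on the 4 control arrays. The log2 ratios were -0.98, -1.20, -1.15 and -0.90 in ligation, against 0.15, 0.09, 0.11 and 0.40 in control. All ligation arrays lay below all control arrays, and control array 4 stood above the other controls. The change was -1.24 ± 0.0928 (SE, 95% interval -1.46 to -1.02, n = 4 and 4), with a limma adjusted p of 2.22e-05. Only 5.37% of tested probes had a larger absolute change. In the authors' deposited table, the p-value of the ratio within each array was 1.16e-11 to 3.91e-07 on ligation arrays and 0.02 to 0.60 on control arrays.

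The second Ntrk2 probe (700688065H1) was close to the floor of the array and did not repeat that fall in size. Its sample intensities were 0.09, 0.13, 0.06 and 0.10 in ligation and 0.07, 0.12, 0.15 and 0.10 in control, and the groups overlapped. The log2 ratios were -0.15, -0.11, -0.22 and 0.00 in ligation and 0.00, 0.00, 0.00 and 0.15 in control. The change was -0.16 ± 0.0574 (SE, n = 4 and 4) with a limma adjusted p of 0.0475, and rounding of the intensities alone allows -0.46 to 0.14. With 1 array left out at a time the change ran from -0.20 to -0.12, and the call was kept only without ligation array 4. The files do not say which transcript form of Ntrk2 either probe matches. The change of the bright probe was lower than that of the dim one by 1.08 log2 units (difference -1.08, exact permutation p = 0.0286, adjusted p = 0.0314).

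Ntrk3 encodes TrkC, the receptor of neurotrophin-3, and fell 2.51-fold with the tightest replicates among the Trk members. Sample intensities were 3.13, 2.83, 2.77 and 2.17 in ligation, against 6.25, 6.33, 6.98 and 6.10 in control. The log2 ratios were -1.23, -1.34, -1.42 and -1.24 in ligation (SD 0.089), against 0.01, 0.01, 0.06 and -0.01 in control (SD 0.0311). The lowest control array was above the highest ligation array by far more than either group's spread. The change was -1.33 ± 0.046 (SE, 95% interval -1.44 to -1.22), with a limma adjusted p of 8.79e-07 (n = 4 and 4). The change was as large as or larger than that of all but 4.71% of tested probes.

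Ngfr encodes p75, which binds every neurotrophin and their uncleaved precursors, and it fell 1.64-fold, less than the bright Ntrk2 probe and Ntrk3. Sample intensities were 4.09, 4.96, 5.40 and 4.10 in ligation, against 6.75, 7.13, 7.74 and 6.62 in control. The log2 ratios were -0.80, -0.56, -0.61 and -0.89 in ligation, against 0.02, 0.03, -0.06 and 0.00 in control. The groups did not overlap, and ligation arrays 2 and 3 were nearer to control than arrays 1 and 4. The change was -0.71 ± 0.0762 (SE, 95% interval -0.89 to -0.53), with a limma adjusted p of 0.000139 (n = 4 and 4), and 15.3% of probes changed more. With quantile normalization between arrays the change was -0.39 and still passed the test (limma adjusted p = 0.014).

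Ret encodes the kinase shared by all GFRα co-receptors, and its 2 probes could not both be compared. The dim probe (g2949398) fell 1.90-fold, with sample intensities of 0.09, 0.09, 0.08 and 0.11 in ligation, against 0.15, 0.13, 0.15 and 0.17 in control. Its log2 ratios were -0.92, -0.92, -1.0 and -0.79 in ligation, against 0.10, -0.11, -0.09 and 0.18 in control. The groups stood apart although the probe is dim (percentile 37.9). The change was -0.93 ± 0.0783 (SE, 95% interval -1.11 to -0.74, limma adjusted p = 4.12e-05, n = 4 and 4), and rounding of the intensities allows -1.15 to -0.71. It was -0.60 with quantile normalization between arrays (limma adjusted p = 0.041).

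The bright Ret probe (AJ299016) had no value in either channel on any of the 4 control arrays, so it entered no test. On ligation arrays its sample intensities were 16.17, 14.43, 14.81 and 17.14, beside 21.67, 19.91, 21.60 and 19.87 for the reference pool on the same arrays. The log2 ratios to the reference were -0.42, -0.46, -0.54 and -0.21, with a mean of -0.41 (SD 0.141, n = 4). All 4 lay below the control pool, with p-values of 0.20 to 0.60 per array in the authors' deposited table. At the bright end of most channels, spots piled up within 0.05 of one intensity, and the table carries no saturation flag. The reference intensity of this probe lay within 10% of that pile on 4 of 4 ligation arrays, so its ratio may be understated in size.

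Gfra1 encodes the co-receptor that prefers GDNF, and it was the receptor with the clearest rise, by 2.73-fold. Sample intensities were 18.33, 17.25, 17.72 and 20.99 in ligation, against 6.39, 6.36, 6.52 and 6.55 in control. The log2 ratios were 1.48, 1.32, 1.39 and 1.43 in ligation, against -0.03, -0.08, 0.00 and -0.06 in control. All ligation arrays lay above all control arrays. The change was 1.45 ± 0.0377 (SE, 95% interval 1.36 to 1.54), with a limma adjusted p of 3.67e-07 (n = 4 and 4). Only 2.43% of tested probes had a higher change. All 4 ligation arrays lay within 10% of the pile of bright spots (18.08, 18.13, 17.77 and 21.23 on the 4 arrays), so the fold may be understated, and the small spread in ligation, the SE and the interval may be too narrow.

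**Figure D2:**
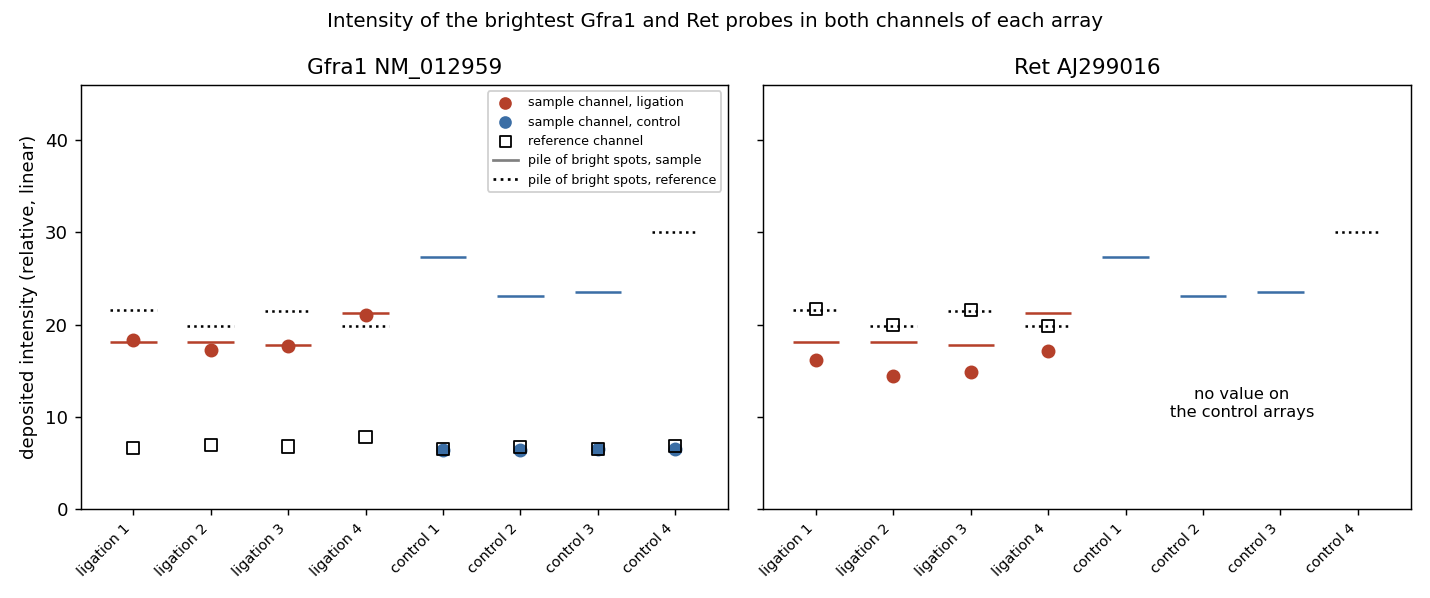
Deposited intensity (linear scale) on each of the 8 arrays for Gfra1 on the left and the bright Ret probe on the right, with filled circles for the sample channel, open squares for the reference channel and short lines where bright spots pile up on that array. The ligation circles of Gfra1 sit at the pile between 17.25 and 20.99, while for Ret the reference squares sit at it and no control value exists.

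Gfra2 encodes the co-receptor that prefers neurturin, and it moved the other way, with a fall of 2.72-fold. Sample intensities were 2.35, 2.76, 3.32 and 2.34 in ligation, against 6.35, 6.26, 6.81 and 7.32 in control. The log2 ratios were -1.59, -1.18, -1.04 and -1.67 in ligation, against 0.08, 0.05, -0.01 and 0.17 in control. No ligation array came near a control array, yet the ligation arrays varied among themselves (SD 0.308), with arrays 1 and 4 lowest. The change was -1.44 ± 0.146 (SE, 95% interval -1.79 to -1.10), with a limma adjusted p of 0.000104 (n = 4 and 4), and 1.49% of probes had a lower change.

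Gfra3 encodes the co-receptor that prefers artemin, and its brighter probe (g3072466) was modestly higher while its dim one did not pass the test. The log2 ratios of the brighter probe were 0.71, 0.39, 0.33 and 0.71 in ligation, against 0.00, -0.04, -0.04 and 0.24 in control, from intensities of 1.51, 1.17, 1.13 and 1.28 in ligation and 0.73, 0.66, 0.81 and 0.92 in control. The ligation arrays lay above the control arrays, though array 3 in ligation (0.33) and array 4 in control (0.24) were close. The change was 0.50 ± 0.114 (SE, 95% interval 0.23 to 0.77, limma adjusted p = 0.0068, n = 4 and 4), and with quantile normalization it was 0.29 and did not pass (limma adjusted p = 0.268). A rise of this size is common here, since 13% of probes had a higher change. The dim probe (g6010760) had log2 ratios of 0.15, 0.15, 0.00 and 0.38 in ligation and 0.00, 0.00, 0.00 and 0.19 in control. Its change was 0.12 ± 0.0856 (SE, 95% interval -0.08 to 0.32, limma adjusted p = 0.261), rounding allows -0.19 to 0.43, and from the sample channel alone it was -0.05.

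**Figure D3:**
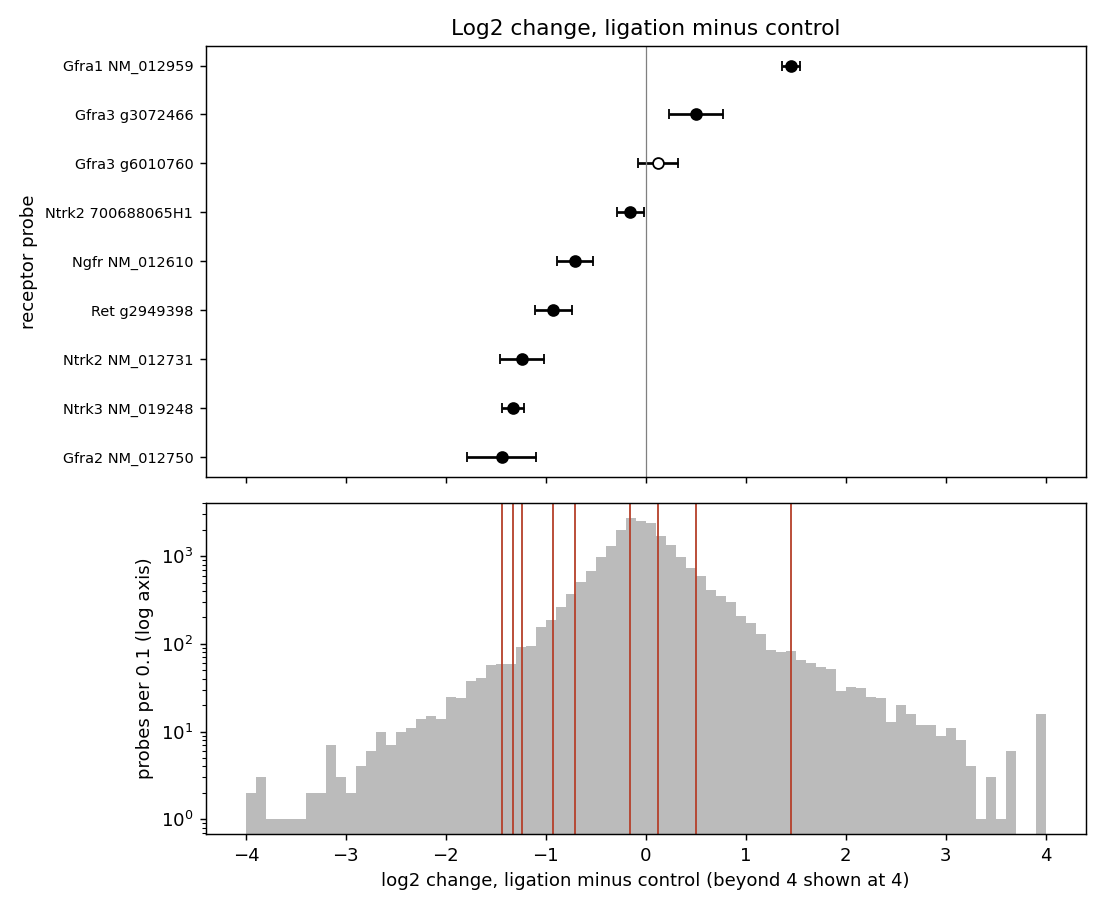
The upper panel gives the log2 change of each tested receptor probe with its 95% interval, filled where the limma test was passed, and the lower panel places the same changes as red lines on the distribution over all tested probes (log count axis). Gfra1 at 1.45 and Gfra2 at -1.44 lie in opposite tails, and the dim probes of Gfra3 and Ntrk2 lie near 0.

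Differences between receptors were tested for 11 pairs of probes with an exact permutation test of the difference in log ratio over the 8 arrays, two-sided, which has 70 relabellings and a smallest possible p of 0.0286. In 10 pairs the p was at that smallest value (adjusted p = 0.0314). As measured, Gfra1 changed by 2.89 log2 units more than Gfra2 and by 0.95 more than Gfra3, and Gfra2 stood below Gfra3 by 1.94 (difference -1.94). The values with Gfra1 rest on ligation arrays at the pile of bright spots, so their sizes may be understated. The dim Ret probe stood apart from each co-receptor, with differences of -2.37 from Gfra1 (under the same limit), 0.52 from Gfra2 and -1.42 from Gfra3. These sizes are limited by its faint signal, since rounding allows -1.15 to -0.71 for the change of that Ret probe. The Ret and Gfra2 difference missed the threshold (adjusted p = 0.0629, exact permutation test) without any single control array, as was that of Ngfr and Ntrk2.

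Within the neurotrophin receptors, Ngfr as measured fell less than the bright probes of both kinases. It differed from Ntrk2 by 0.53 and from Ntrk3 by 0.62 log2 units. The array differences from Ntrk2 ran from 0.01 to 0.64 in ligation and from -0.40 to -0.06 in control. With the sample channel alone the Ntrk2 difference was 0.32 (exact permutation p = 0.229). Ntrk2 and Ntrk3 differed by 0.08, with an exact permutation p of 0.429 (adjusted p = 0.429), and the array differences overlapped, at 0.14 to 0.35 in ligation and 0.05 to 0.41 in control. This does not show that the TrkB and TrkC genes changed alike.

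The ligation arrays were not uniform for every receptor. Arrays 1 and 4 held the lowest Gfra2 and Ngfr ratios and the highest Gfra3 ratios, while arrays 2 and 3 held the lowest Ntrk2 and Ntrk3 ratios. Among the marker medians, the nonpeptidergic list was at -1.14, -0.84, -0.92 and -1.43 on ligation arrays 1 to 4 and the peptidergic list at -1.79, -1.43, -1.40 and -1.89. The large myelinated list was at -2.31, -2.16, -2.07 and -2.03. The general neuron list was at -0.70, -0.89, -0.89 and -0.71, and the fibroblast list at 0.81, 1.06, 1.11 and 0.84. Gfra2 and Ngfr had their lowest values on arrays 1 and 4, which also had the lowest nonpeptidergic and peptidergic medians. The bright Ntrk2 probe and Ntrk3 had theirs on arrays 2 and 3, which had the lowest general neuron medians. The order of the large myelinated medians was not that of Ntrk2 or Ntrk3. All these orders cover 4 arrays and were not tested.

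**Figure D4:**
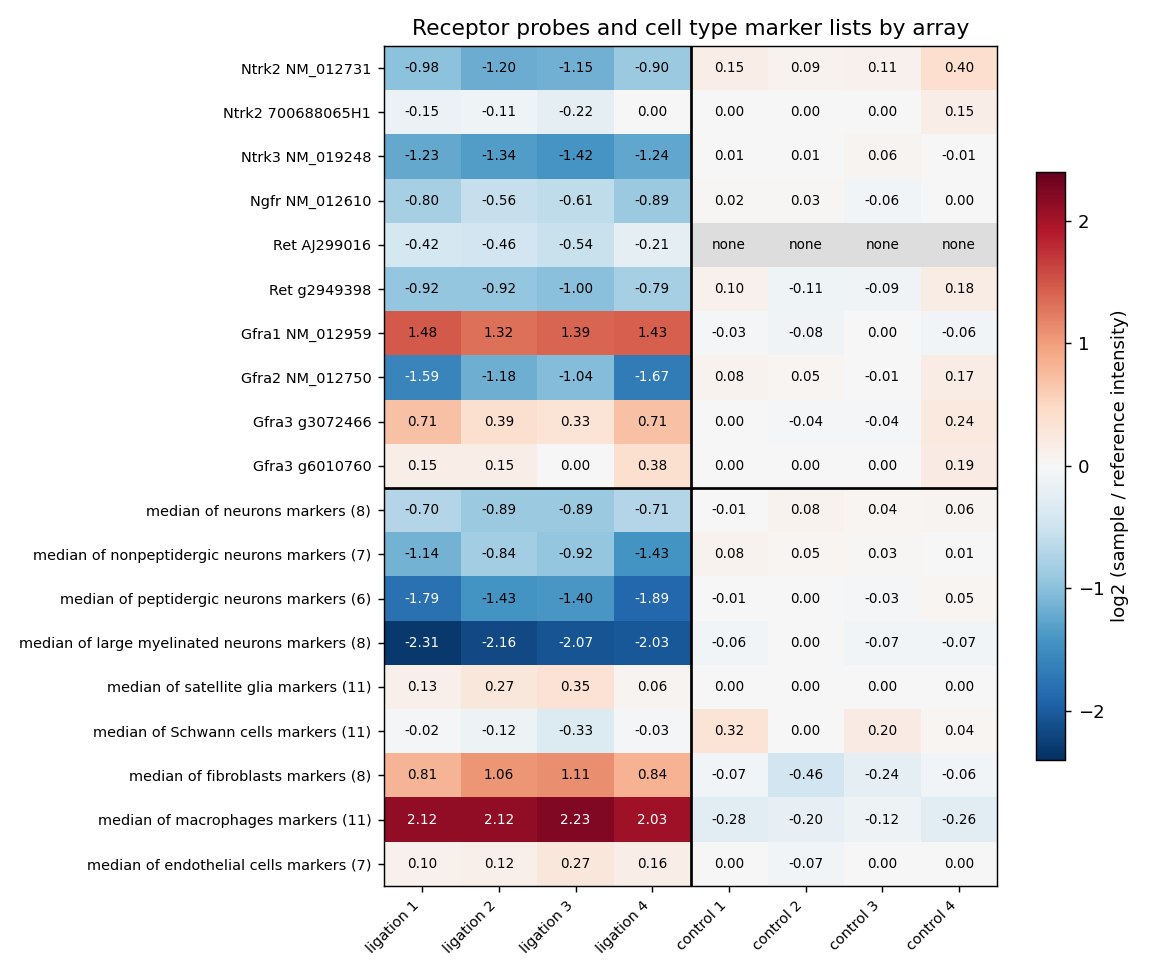
Each cell gives a log2 ratio of sample over reference on 1 array, for the 10 receptor probes and for the median of each cell type marker list with the number of markers in brackets, the 4 ligation arrays left and the 4 control arrays right. The bright Ntrk2 probe, Ntrk3 and all neuron lists are blue in ligation, Gfra1, fibroblasts and macrophages are red, and control cells run from -0.46 (fibroblasts) to 0.40 (Ntrk2).

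The genes whose ratios most resembled those of a receptor were found by the root mean square difference over the 8 arrays among 10621 named genes. For Ntrk2 they were Mapt, which encodes the microtubule protein tau (0.0575 log2 units), Tceal3 (0.0862) and Sbk1, a kinase (0.0996). For Ntrk3 they were Arg2, a mitochondrial arginase (0.0571), MAST1, a microtubule-associated kinase (0.0597), and Isl1, a homeodomain transcription factor of sensory neurons (0.0683), which is also a neuron marker here. For Gfra1 they were Fam110a (0.0746), Nabp1, a single-stranded DNA binding protein (0.0788), and Rnd3, a small GTPase (0.0847), and for Gfra2 they were Slc45a3, a solute carrier (0.0919), B3gnt2, a glycosyltransferase (0.10), and Kcnh6, a potassium channel of the ERG family (0.121). The Gfra1 neighbours changed by 1.46 to 1.52 and the Ntrk2, Ntrk3 and Gfra2 neighbours by -1.55 to -1.08. That these changes lie near those of the receptors follows from the choice by likeness. The Gfra1 ratios matched in ligation were those near the pile of bright spots, and of the 2 Sbk1 probes 1 was lower.

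The ligands were mostly faint, and their changes were small. Bdnf, the TrkB ligand, rose 1.28-fold (change 0.36, limma adjusted p = 0.0149), with log2 ratios of 0.31, 0.47, 0.23 and 0.07 in ligation and -0.24, -0.05, -0.11 and 0.05 in control. The groups were apart by the narrow gap between 0.07 and 0.05, and no neurotrophin passed the test with quantile normalization. Ntf4, another TrkB ligand, was at a mean intensity of 0.0175 in ligation and 0.02 in control, with a change of 0.00. For Ntf4 rounding alone allows -1.68 to 1.68. Of the 4 neurotrophins, 2 were higher and 0 lower, with a median change of 0.18, against -0.05 over all named genes, of which 66.1% passed the test, 30.3% higher and 35.8% lower.

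Of 4 GDNF family ligands 3 were measured, 1 was lower and 0 higher, with a median change of -0.15. Pspn, the persephin gene, fell 1.13-fold (limma adjusted p = 6.44e-05), a step that rounding alone could give (bounds -0.53 to 0.16). Gdnf had a change of 0.43 at mean intensities of 0.008 in ligation and 0.00728 in control and did not pass (limma adjusted p = 0.0806). Nrtn, the gene of the GFRα2 ligand neurturin, had a change of -0.15 (limma adjusted p = 0.0844) at mean intensities of 0.283 in ligation and 0.292 in control. Artn was not among the named probes. The Pspn and Gdnf intensities lay below the median of every array and that of Nrtn above it.

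Of 15 related receptors and co-receptors 10 were measured, and 7 were lower and 0 higher (median change -0.30), against 35.8% lower and 30.3% higher over all named genes. Sorl1, a receptor of the VPS10 family to which the p75 partner sortilin belongs, fell 8.0-fold (change -3.00, limma adjusted p = 1.47e-05), and both its probes were lower. Ncam1, the neural cell adhesion molecule that can also bind GDNF with GFRα1, had a change of 0.02 (limma adjusted p = 0.85), while its other probe was higher. Under quantile normalization 4 of the 10 were lower, and with added rounding noise 5 were. With the sample channel alone 4 were lower and 1 higher. Some of the lower calls came from faint probes whose rounding bounds include 0.

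Downstream of the receptors, of 39 measured genes of Trk and RET signalling 10 were higher and 13 lower, with a median change of 0.00. These shares are no larger than the 30.3% higher and 35.8% lower over all named genes. Rps6ka1, the kinase RSK1, rose 2.19-fold (limma adjusted p = 8.43e-07). Cbl, a ubiquitin ligase of receptor kinases, had a change of 0.00 at mean intensities of 0.035 in ligation and 0.0325 in control. Rounding alone allows -0.88 to 0.88 there, so a change of Cbl could not be seen.

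Of 18 measured genes of p75 signalling 5 were higher and 7 lower (median change 0.07), also near the shares over all named genes. Bex1, an adaptor that binds p75, fell 2.99-fold (limma adjusted p = 1.29e-06).

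Genes listed here as responding to neurotrophins or RET in other cells were higher more often than lower. The list was chosen with earlier results of these data known, so its count is a description only. Of 23 measured members 16 were higher and 4 lower, with a median change of 0.62, beside a median of -0.05 and 30.3% higher over all named genes. Fos, an immediate early transcription factor, rose 7.53-fold (limma adjusted p = 1.03e-06), and Vgf, a neuropeptide precursor, rose 3.44-fold (limma adjusted p = 1.26e-06). Egr3, another immediate early gene, had a change of -0.02 (limma adjusted p = 0.889). It was faint, at mean intensities of 0.07 in ligation and 0.0725 in control, and rounding allows -0.43 to 0.40. These genes respond to many stimuli, and 1 of them, Egr2, is also a Schwann cell marker in the lists above. The macrophage and fibroblast sums given above were higher in the same samples, and their part in this count was not tested.

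**Figure D5:**
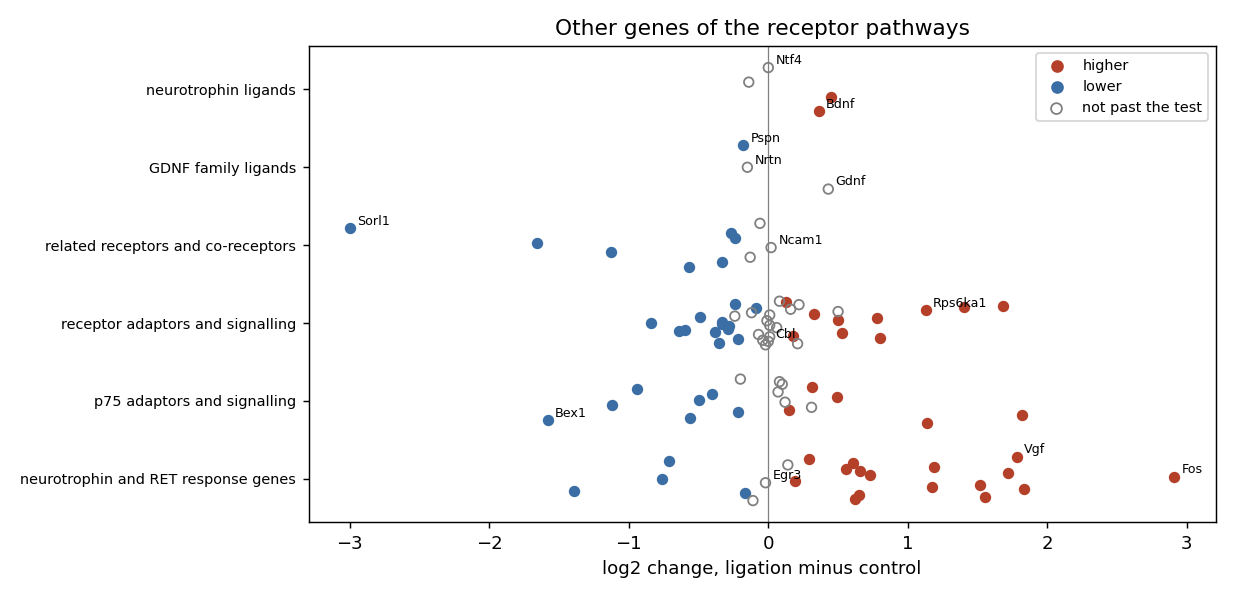
Log2 change (ligation minus control) of each of the 97 measured pathway genes by list, red where higher, blue where lower and open where the limma test was not passed, with the members that the text names labelled. Sorl1 at -3.00 and Fos at 2.91 mark the ends, and the response genes lie mostly to the right of 0.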

How the data were processed

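RNA from 8 samples was measured on 2-colour arrays. An input of 100 ng per sample went, per the labels' protocols, through 2 rounds of amplification. The submitters' processing notes name Agilent Feature Extraction 8.5.1.1. How it normalized the arrays is not given in the sources used here. For each channel, the deposited table holds an intensity on a relative linear scale, with the authors' p-value for the ratio within each array. A deposited log10 table equalled the log10 ratio of these intensities within 0.005 for 100% of 23557 spots, so it was not run separately.

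Log2 ratios were computed with no further scaling, since each array's median was 0, and spots of 1 probe were averaged. Probes with values on at least 2 arrays of each group were tested with lmFit and two-sided eBayes of limma 3.58.1 (R 4.3.3), Benjamini-Hochberg adjusted over all probes, and 112 were left out. Names came from a RefSeq table of rat genes: 2955 probes matched by accession, 10334 by symbol and 1898 by synonym, 321 kept the file's name and 6983 had none. A gene in a list took its brightest probe. Pairs of receptor probes were compared by an exact permutation test, and pairs with Ret used its dim probe, a choice made after its bright probe was found blank. Python 3.11.15 with matplotlib 3.10.9, pandas 2.3.3 and numpy 2.4.6 made tables and figures. The fit was tested on simulated data.

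The members and lists were chosen with earlier results of these data known. Every member is named. From each pathway list the text names 2 genes by smallest adjusted p and 1 by smallest change, and for each member changed at least 2-fold the 3 genes most alike, apart from some that are not reported here. The alternatives were quantile normalization, median centring, the sample channel alone, the replicate block, eBayes with trend, bright probes alone, ligation arrays 1 and 4 alone, added rounding noise, the mean of a gene's probes, and leaving out each array. The number of arrays limits precision.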

Additional observations from a re-analysis of the deposited data

Results flagged for a closer look

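In 19 groups of 4 arrays, 3 had a single array far from the other 3, in each case control array 4, and chance gives such a flag in about 1 group in 20. For the dim Ntrk2 probe (700688065H1) its log2 ratio was 0.15 and the other control arrays were at 0.00. For the brighter Gfra3 probe (g3072466) it was 0.24, where the others lay between -0.04 and 0.00. For the dim Gfra3 probe (g6010760) it was 0.19 and the others were at 0.00. The 2 dim probes have ratios that move in steps set by the rounding of the intensities, so the rate of 1 in 20 need not hold for them. Without control array 4 the dim Ntrk2 probe lost its call (change -0.12, limma adjusted p = 0.1). Leaving out control array 4 changed no call of the Gfra3 probes, whose changes over all arrays left out 1 at a time ran from 0.44 to 0.57 and from 0.05 to 0.18.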

How the results depend on the processing

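The bright Ntrk2 probe, Ntrk3, Ngfr, the dim Ret probe, Gfra1 and Gfra2 passed the test in the same direction under each alternative that could be run for them. Quantile normalization between arrays cut the probes called over the whole array to 6363, against 13105, left 1 receptor probe higher, 3 at least 2-fold (not Ntrk3) and 21 pathway genes higher and 21 lower, and took the dim Ntrk2 probe (-0.15) and the brighter Gfra3 probe (0.29) out of the call. It also turned the sign of the Ntrk2 minus Ntrk3 difference (-0.21) and lost that of Ret minus Gfra2 (0.45). The dim Ntrk2 probe lost its call with the sample channel alone (-0.44), with ligation arrays 1 and 4 alone (-0.11) and with added rounding noise (-0.14), and ran from -0.20 to -0.12 with 1 array left out. With the sample channel alone the dim Gfra3 probe turned to -0.05. In that setting all 10 called pairs missed the threshold, 6 of them at the smallest p the design allows (adjusted p = 0.0524, exact permutation): the differences were 0.55 between the Gfra3 probes, -0.61 between the Ntrk2 probes, 0.32 for Ngfr minus Ntrk2, 0.65 for Ngfr minus Ntrk3, 2.99 for Gfra1 minus Gfra2, 1.02 for Gfra1 minus Gfra3, -1.97 for Gfra2 minus Gfra3, -2.44 for Ret minus Gfra1, 0.54 for Ret minus Gfra2 and -1.42 for Ret minus Gfra3. Leaving out 1 array moved Ngfr minus Ntrk2 between 0.43 and 0.64 and Ret minus Gfra2 between 0.38 and 0.66. The cause of these shifts was not tested. For arrays with the same replicate number, the deviations from the group means had correlations of 0.107, 0.0676, 0.138 and 0.164. Each ligation array correlated best with the control array of its own number. What a shared number stands for was not tested, and the main test did not use the numbers. The replicate block called 12577 probes and changed no receptor call. Faint probes, near 0.1, are limited by rounding to 2 decimals, and the brightest by the pile of spots.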
